A study of Homo sapiens with 33 samples.

Results

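The E2F transcription factors and their DP partners were followed in RNA sequencing libraries of human acute lymphoblastic leukaemia cell lines. The family was listed by name, as E2F1 to E2F8 with the partner genes TFDP1 and TFDP2, and its 10 genes are 10 of the 62446 gene rows in each deposited count file. The members were chosen by name and by 1 measured value, the near absence of TFDP1 counts in the knockout libraries, so TFDP1 is described there without a test, and the other 9 genes are tested in every comparison with that line. All 10 genes had enough counts to be tested wherever a test was made. Nalm6 is a B-cell precursor line and CEM a T-cell line, and the TLE1 knockout is Nalm6 edited with CRISPR/Cas9 in TLE1, a gene for a Groucho-type co-repressor. The labels do not say whether the knockout is a single clone.

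There were 33 libraries in 11 groups of 3, and all treatments lasted 24 h. Parental Nalm6 has a first untreated group and a group with 0.5 µM CHIR-99021, which is a GSK3 inhibitor used as a Wnt agonist. Another parental group had 5 µM of the glucocorticoid prednisolone. The labels do not say with which untreated Nalm6 group it was run, and it was set against the first. A further untreated Nalm6 group is paired by title with Nalm6 under the glucocorticoid dexamethasone at 100 nM. For the TLE1 knockout there are an untreated group, a prednisolone group (5 µM) and a dexamethasone group (100 nM). The CEM groups are untreated, CHIR-99021 at 2 µM and prednisolone at 10 µM. Nalm6 and knockout cells were kept in medium with charcoal-stripped serum, which is low in steroids. The protocol text and the series text disagree over which of these lines received prednisolone and which CHIR-99021, and the sample titles were followed. The series text speaks of independent experiments, but the labels do not tie a replicate to a culture, so p-values measure the spread between these libraries, part of which may be technical.

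Libraries held 25292579 to 61930057 counts in genes, so that 3 counts, the most that a listing of 0 allows, are 0.0484 to 0.119 counts per 1000000 counts (CPM). The 8 B-lineage markers summed to 1853 to 2632 CPM in the 15 parental Nalm6 libraries, 1962 to 2428 in the 9 knockout libraries and 59.1 to 96.4 in the 9 CEM libraries. The 8 T-lineage markers summed to 1588 to 1819 CPM in CEM and 17.9 to 44.4 in the Nalm6 and knockout libraries. TLE1 itself was at 30.2, 34.0 and 31.8 CPM in untreated Nalm6 and at 25.4, 24.0 and 24.0 CPM in the untreated knockout. It was at 110.0 to 116 CPM in Nalm6 and 54.5 to 69.0 in the knockout under prednisolone, and at 129 to 134 and 55.3 to 59.0 CPM under dexamethasone. Counts over a whole gene do not check an edit that leaves the transcript in place.

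E2F proteins bind DNA as partners of DP proteins and set the timing of genes for DNA replication. E2F1, E2F2 and E2F3 are known as activators, and retinoblastoma-family pocket proteins hold them in check until cyclin D and cyclin E kinases phosphorylate those pocket proteins in late G1. E2F4 and E2F5 mostly act as repressors with the pocket proteins p107 and p130 in resting and early G1 cells, and E2F6 represses without a pocket protein, through Polycomb-type complexes. E2F7 and E2F8, the atypical members, bind DNA without a DP partner and repress E2F targets later in S phase. TFDP1 and TFDP2 encode the DP1 and DP2 proteins, without which E2F1 to E2F6 bind DNA poorly. Glucocorticoids are used in treating lymphoid leukaemia and are known to stop lymphoid blasts in G1.

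Several members carry E2F-type words in their own promoters. The words TTTCCCGC, TTTCGCGC, TTTGCCGC and TTTGGCGC were searched on both strands of the 250 bases before each start in the RefSeq promoter table (GRCh38.p14), which matched 8 of the 10 members by symbol, all but E2F5 and E2F8. The members with a word are shown because those are the family's own candidates for E2F control. Each line gives the 150 bases before the start, 5′ to 3′ on the gene's strand, with the words in capitals (the reverse complement of a word where it lies on the other strand).
E2F1: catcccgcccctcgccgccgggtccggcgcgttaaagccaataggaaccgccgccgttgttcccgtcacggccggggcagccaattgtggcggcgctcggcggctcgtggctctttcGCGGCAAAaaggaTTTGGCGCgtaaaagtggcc
E2F2: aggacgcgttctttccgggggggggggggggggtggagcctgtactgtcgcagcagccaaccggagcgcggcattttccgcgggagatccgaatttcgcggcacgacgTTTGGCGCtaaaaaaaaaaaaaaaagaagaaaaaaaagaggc
E2F3: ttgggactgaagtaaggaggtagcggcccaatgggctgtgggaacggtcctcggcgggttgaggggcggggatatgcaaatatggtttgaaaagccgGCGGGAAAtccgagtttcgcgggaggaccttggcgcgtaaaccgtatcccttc
TFDP1: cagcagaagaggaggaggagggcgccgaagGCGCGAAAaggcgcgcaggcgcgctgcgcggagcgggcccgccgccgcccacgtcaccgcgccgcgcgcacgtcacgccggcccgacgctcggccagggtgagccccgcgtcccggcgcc

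The E2F1 window lies at chr20:33686386-33686535 on the minus strand and holds 2 words, whose first bases are at -33 and -20 from the start. The E2F2 window, chr1:23531234-23531383 on the minus strand, holds 1 word at -42. E2F3 has more than 1 listed start, and the window with a word, chr6:20401729-20401878 on the plus strand, holds it at -53. The TFDP1 window, chr13:113584603-113584752 on the plus strand, holds its word at -120. Words were thus found in 4 of the 8 matched members, against 3.40% of all 27305 genes in the table and 47.8% of the 23 matched genes of a list of G1/S E2F targets. E2F4, E2F6, E2F7 and TFDP2 held none of these letters in the window. The palindromic glucocorticoid response element was in 1 of 35116 windows and in none of the members. A match is a description of letters, not a binding site.

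**Figure D1:**
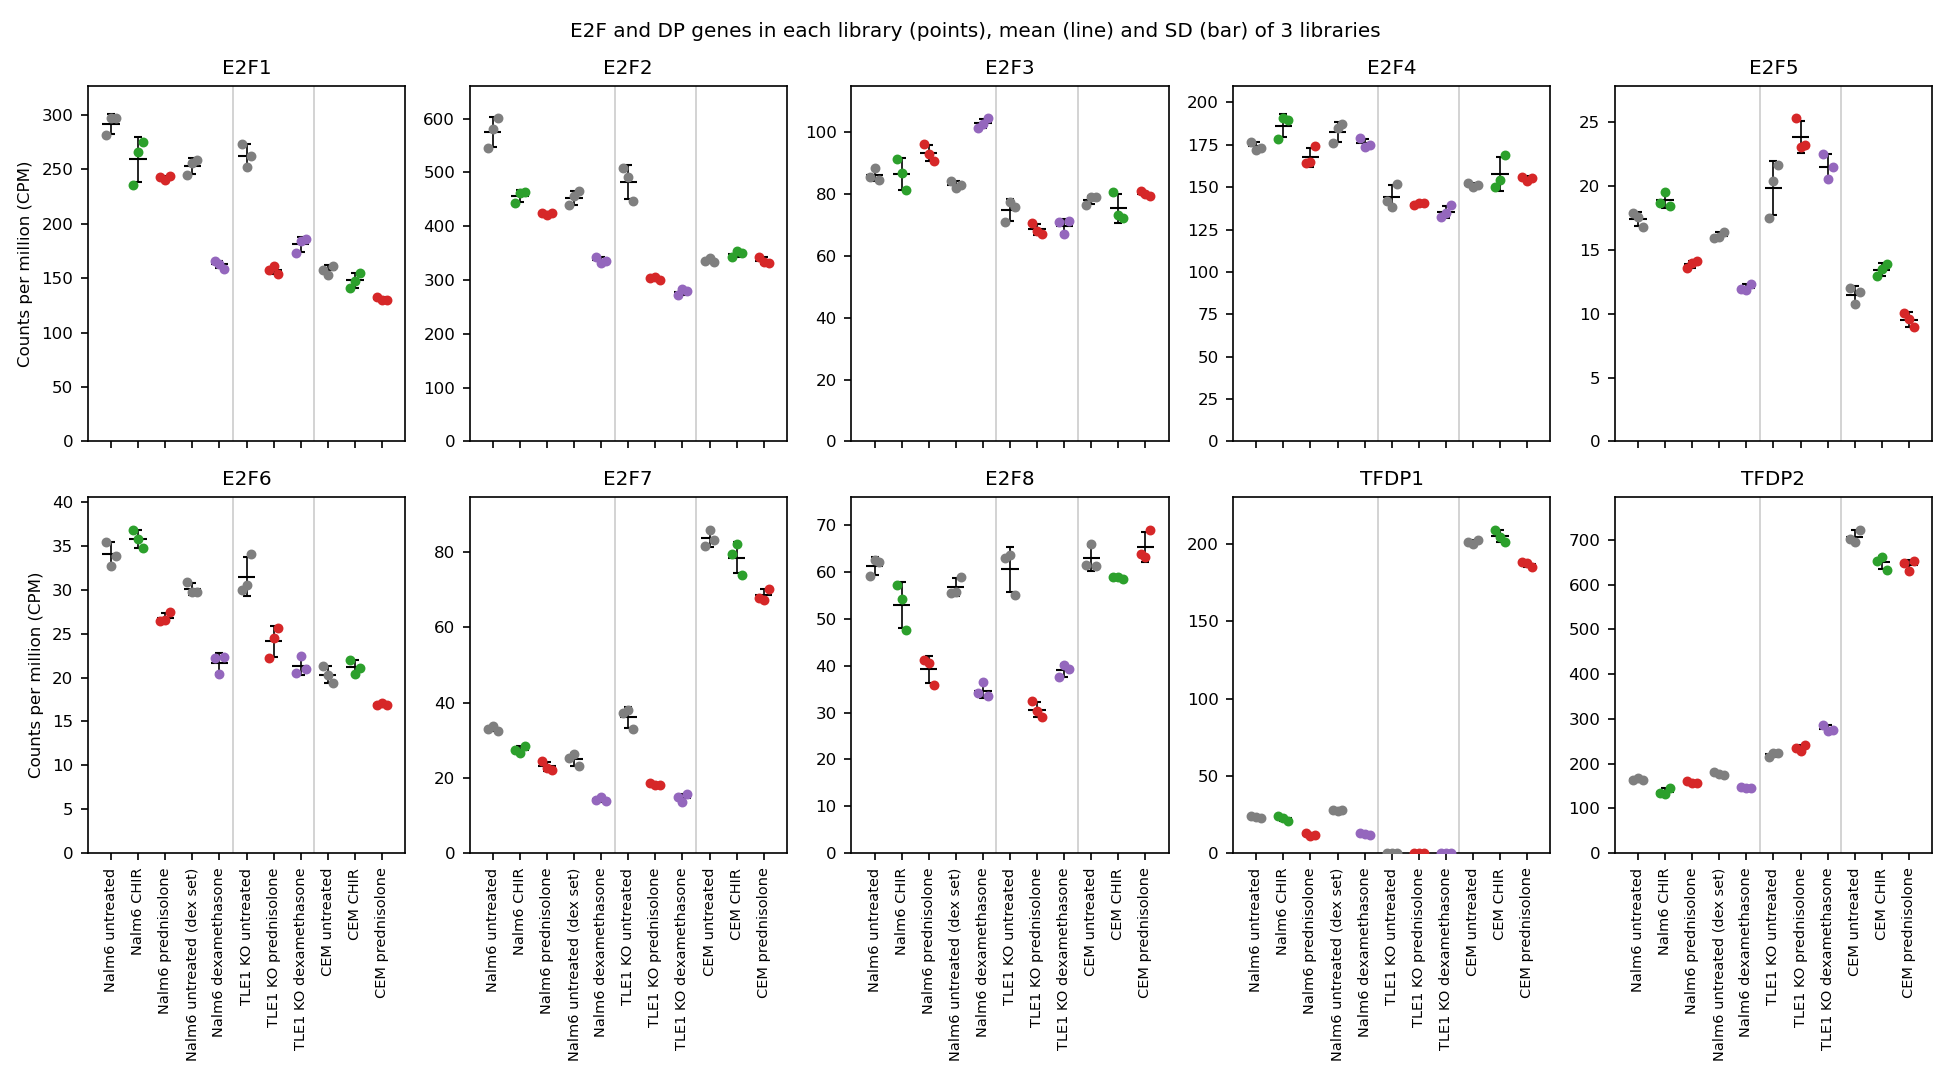
Level of each E2F and DP gene in every library, in CPM on axes that start at 0. Points are libraries (grey untreated, green CHIR-99021, red prednisolone, purple dexamethasone), lines are means and bars are SD of 3 libraries. TFDP1 lies at the axis in all 9 knockout libraries and near 200 CPM in CEM. E2F1, E2F2, E2F7 and E2F8 are lower under glucocorticoid in Nalm6 and under prednisolone in the knockout, each against the untreated group used for it.

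On a scale divided by gene length (CPM per kilobase of exon), untreated Nalm6 carried most E2F1, at 117 ± 3.58 (SD, n = 3), and E2F2, at 111 ± 5.32, and these did not differ beyond their spread. E2F4 followed at 83.0 ± 1.18. The levels then dropped to 16.7 ± 0.388 for E2F3, 16.3 ± 0.169 for TFDP2 and 15.6 ± 0.494 for E2F8, of which E2F3 and TFDP2 lay within their spread of each other. E2F6 stood at 9.87 ± 0.402, TFDP1 at 8.76 ± 0.267, E2F5 at 8.67 ± 0.284 and E2F7 at 5.75 ± 0.109. TFDP1 and E2F5 did not differ beyond their spread. With the longest transcript in place of the union of exons E2F5 moved to the last place. DP genes therefore supplied less RNA per kilobase in Nalm6 than the activators E2F1 and E2F2.

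CEM had another order. There TFDP1 came first at 76.0 ± 0.515 CPM per kilobase, before E2F4 at 72.2 ± 0.640, TFDP2 at 70.0 ± 1.40, E2F2 at 64.8 ± 0.755 and E2F1 at 62.8 ± 1.76. The last 2 overlap within their spread, and with the longest transcript E2F4 moved to the fifth place. E2F8 was at 16.03 ± 0.680, E2F3 at 15.1 ± 0.260, E2F7 at 14.6 ± 0.375, E2F6 at 5.90 ± 0.281 and E2F5 at 5.73 ± 0.329. E2F8 and E2F3, E2F3 and E2F7, and E2F6 and E2F5 did not differ beyond their spread. TFDP1 made up 52.1% of the summed DP levels per kilobase in untreated CEM and 34.9% in untreated Nalm6. In the untreated knockout, where TFDP2 was at 21.9 ± 0.586 CPM per kilobase, that share was 0.168%.

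TFDP1, the gene for DP1, was present in every parental library and almost absent from the knockout. Untreated Nalm6 gave 23.8, 23.3 and 22.4 CPM, the CHIR-99021 group 23.7, 22.8 and 20.6, and the second untreated group 27.6, 27.1 and 27.8. The glucocorticoid groups were lower, with 12.8, 11.1 and 11.8 CPM under prednisolone and 13.05, 12.5 and 11.8 under dexamethasone. In the knockout each untreated library held 3 counts of TFDP1, each prednisolone library 3 counts, and the dexamethasone libraries 2, 1 and 2 counts. No parental library came near these values, and no treatment of the knockout brought counts back.

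As a ratio of levels over the summed libraries, untreated Nalm6 with 3905 counts stood 239 times above the untreated knockout with 9 counts. The ratio was 127 under prednisolone, with 9 counts in the knockout, and 203 under dexamethasone, with 5. These ratios describe the value by which the members were chosen, and rest on few counts. Counts on the opposite strand of TFDP1 were 0 to 9 in any library. Of the 9836 genes with at least 5 CPM in all 15 parental libraries, 2 had at most 3 counts in all 9 knockout libraries, TFDP1 and CRISPLD1, which lie on chromosomes 13 and 8. Both are expressed in CEM, TFDP1 at 185 to 209 CPM and CRISPLD1 at 6.004 to 22.1 CPM.

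The 4 annotated neighbours of TFDP1 on chromosome 13 with clear counts in Nalm6 still had counts in the knockout. The other listed neighbours were not measured or reached at most 1.12 CPM (GRK1) in any library. TMCO3, next before it (SLC9D1 in RefSeq), was at 27.2 to 31.8 CPM in the 9 knockout libraries and 27.6 to 36.5 in the 15 parental ones, with a log2 difference of -0.099 ± 0.051 (SE, adjusted p = 0.188) untreated. DCUN1D2, a cullin neddylation gene, was at 26.2 to 29.4 CPM in the knockout and 27.0 to 40.7 in the parental libraries. ADPRHL1 was at 87.6 to 134 CPM against 78.2 to 187. On the other side the nearer genes could not be read, and ATP4B, a proton pump subunit gene, was at 5.30 to 36.5 CPM against 2.22 to 37.7. By the same test DCUN1D2 was slightly lower in the untreated knockout (-0.18 ± 0.050, adjusted p = 0.0276) and ATP4B higher (0.49 ± 0.13, adjusted p = 0.0205). None of these 4 neighbours came near 0 counts in the knockout. Since every knockout library lacks TFDP1 counts and carries the TLE1 edit, the part of either in any knockout difference cannot be told apart.

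**Figure D2:**
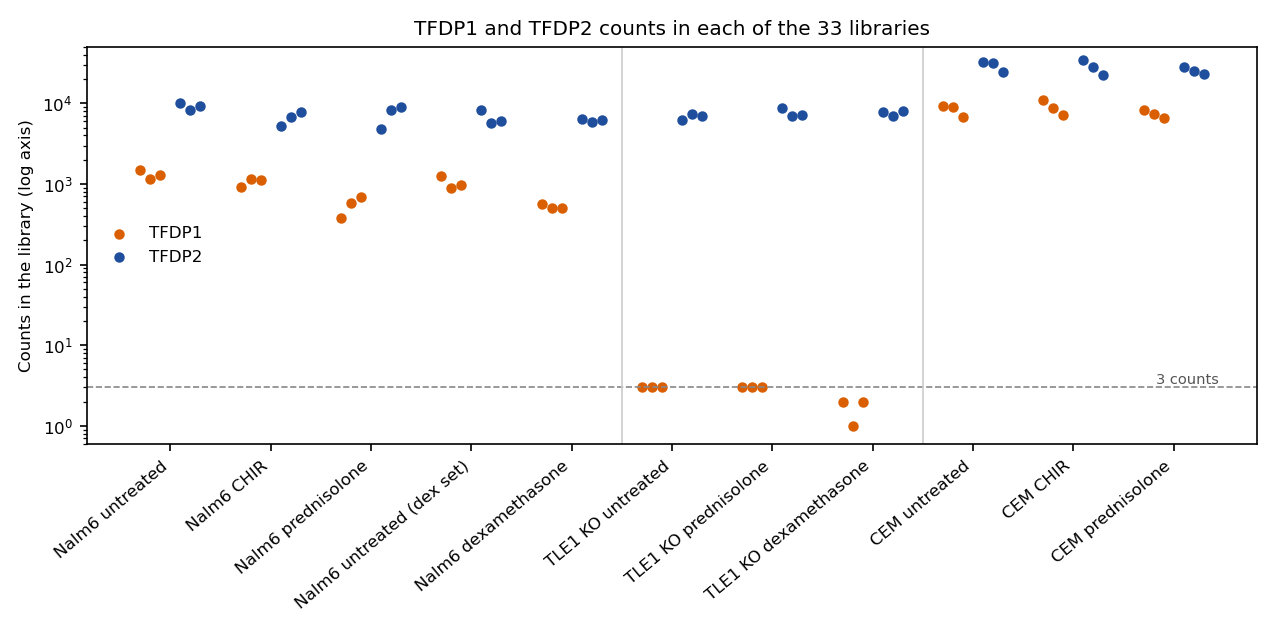
Counts of TFDP1 (orange) and TFDP2 (blue) in each of the 33 libraries, on a log axis; the dashed line marks 3 counts. TFDP1 lies at 1 to 3 counts in the 9 knockout libraries, whereas TFDP2 is present in all libraries.

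TFDP2, the gene for DP2, was the DP gene left in the knockout and was higher there than in the parental line. Its levels were 214, 224 and 224 CPM in the untreated knockout and 164, 167 and 163 CPM in untreated Nalm6. The knockout libraries all lay above the parental ones, and TFDP2 rose by 0.45 ± 0.046 in log2 (SE, adjusted p = 0.000127). Under dexamethasone the knockout gave 287, 274 and 275 CPM and Nalm6 147, 146 and 146 CPM. That difference was 0.94 ± 0.030 (adjusted p = 2.22e-16), a 1.92-fold higher level. The difference kept its call under every alternative that was run for these comparisons. The labels do not say whether the knockout and Nalm6 dexamethasone libraries were run together, so line and set cannot be told apart there. TFDP2 differed by 0.17 between the untreated Nalm6 groups. Under prednisolone the knockout gave 234, 228 and 241 CPM, and the response of TFDP2 to prednisolone in the knockout, 0.045 ± 0.061, did not pass the test (adjusted p = 0.587).

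Among the tested members, 1 rose and 3 fell in the untreated knockout against untreated Nalm6, 4 of 9 called where 27.1% of all genes were called (15.3% higher, 11.8% lower). The activators E2F2 and E2F3 and the repressor E2F4 were the ones that fell. E2F4 had 142, 139 and 152 CPM in the knockout and 177, 172 and 173 CPM in Nalm6, a log2 difference of -0.25 ± 0.052 (adjusted p = 0.00682), without overlap. E2F2 had 508, 491 and 447 CPM against 546, 580 and 601 (-0.23 ± 0.060, adjusted p = 0.0189). E2F3 had 70.9, 77.6 and 76.0 CPM against 85.5, 88.5 and 84.7 (-0.18 ± 0.052, adjusted p = 0.0296). The median over the 9 members was -0.087, against -0.0079 over all genes.

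The calls of E2F2 and E2F3 were not firm. E2F2 was not called without Nalm6 untreated replicate 2 (adjusted p = 0.0743) or replicate 3 (0.0967), nor with the replicate number as a block (0.0512). E2F3 was not called without knockout untreated replicate 1 (0.0765), without any of the Nalm6 untreated replicates 1 to 3 (0.0889, 0.121 and 0.0816), or with the block (0.0649). Without knockout untreated replicate 3, 7 members were called in place of 4, and 2 without Nalm6 untreated replicate 2 or 3. The members that did not pass were E2F1 (-0.13), E2F5 (0.21), E2F6 (-0.087), E2F7 (0.15) and E2F8 (0.0062).

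Under dexamethasone 4 members were higher and 3 lower of 9 in the knockout against Nalm6, where 56.6% of all genes were called (28.5% higher, 28.1% lower). The share of all genes called was 27.1% untreated, so the larger count of members is not read as a larger difference. E2F5, a pocket-protein-bound repressor, was at 22.5, 20.6 and 21.5 CPM in the knockout and 11.9, 11.9 and 12.4 CPM in Nalm6, a difference of 0.85 ± 0.058 (adjusted p = 6.93e-11). E2F3 went the other way, with 70.9, 67.3 and 71.4 CPM against 102, 103 and 105 (-0.55 ± 0.035, adjusted p = 2.33e-11). Neither gene's groups overlapped. E2F4 was lower by the same test (-0.37 ± 0.032) and E2F2 likewise (-0.26 ± 0.030), whereas E2F8 (0.18 ± 0.044) and E2F1 (0.17 ± 0.034) were higher. E2F6 and E2F7 did not pass. The labels do not say with which untreated set the knockout dexamethasone libraries were run, so no dexamethasone response is given for the knockout. Nor do they say whether these were run together with the Nalm6 dexamethasone libraries. Line and set therefore cannot be told apart in the differences of this paragraph.

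Prednisolone lowered most of the family in parental Nalm6, set against the first untreated group. Whether these groups were run together is not in the labels, so treatment and a difference between sets cannot be told apart. Of the 10 members 8 fell and none rose, where 54.8% of all genes were called (28.7% higher, 26.1% lower), and the median member changed by -0.36 against 0.034 over all genes. The largest fall was that of TFDP1, whose values are given above, at -0.998 ± 0.060 in log2 (adjusted p = 3.13e-10), so prednisolone left 0.501 of the untreated level. The atypical repressors came next. E2F8 went from 59.1, 62.7 and 62.2 CPM to 41.2, 40.5 and 36.0 (-0.68 ± 0.048, adjusted p = 2.2e-09), and E2F7 from 32.9, 33.7 and 32.4 CPM to 24.4, 22.6 and 22.1 (-0.55 ± 0.048, adjusted p = 3.03e-08). These groups were apart for each of these 3 genes. The other untreated Nalm6 group, at 23.1 to 26.4 CPM of E2F7, overlapped with the prednisolone libraries at 22.1 to 24.4. TFDP1 and E2F8 were apart from that group as well, at 27.1 to 27.8 and 55.6 to 59.0 CPM there.

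Among the activators, E2F2 went from 546, 580 and 601 CPM to 425, 420.1 and 425 (-0.47 ± 0.040, adjusted p = 2.58e-08). E2F1 went from 281, 297 and 297 CPM to 243, 240.3 and 244 (-0.30 ± 0.036, adjusted p = 2.26e-06). The other untreated Nalm6 group lay nearer, at means of 453 CPM for E2F2 and 253 CPM for E2F1, against 424 and 242 CPM under prednisolone. E2F3 did not pass the test, at 96.1, 93.1 and 90.7 CPM under prednisolone (0.084 ± 0.037, adjusted p = 0.0666). The activators thus did not move together. Of the repressors, E2F6 fell from 35.5, 32.8 and 33.9 CPM to 26.4, 26.6 and 27.5 (-0.37 ± 0.049), and E2F4 did not pass, at 164, 165 and 174 CPM (-0.081 ± 0.039, adjusted p = 0.0909).

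E2F5 fell from 17.9, 17.5 and 16.8 CPM to 13.6, 13.99 and 14.1 (-0.35 ± 0.055, adjusted p = 3.4e-05). In all 33 libraries more reads lay on the strand opposite to E2F5 than on its own (869 to 2282 against 314 to 1109 counts), and when counted without strand the change was -0.090 (adjusted p = 0.242). TFDP2 fell little, from 164, 167 and 163 CPM to 161, 157 and 156 (-0.088 ± 0.034, adjusted p = 0.0386), and lost its call without prednisolone replicate 2 (0.0972) or any of the untreated replicates 1 to 3 (0.0861, 0.110 and 0.0944). The DP pair therefore did not fall in parallel, and TFDP1 was 22.3% of the summed DP level per kilobase under prednisolone, from 34.9%.

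Dexamethasone in Nalm6, set against its own untreated group, gave 8 members lower and 1 higher of 10, where 60.5% of all genes were called (30.2% higher and 30.2% lower). TFDP1 again changed most, by -1.18 ± 0.057 (adjusted p = 3.19e-10). E2F7 went from 25.3, 26.4 and 23.1 CPM to 14.1, 14.9 and 13.8 (-0.84 ± 0.065, adjusted p = 4.54e-08). E2F8 went from 55.6, 55.8 and 59.0 CPM to 34.2, 36.5 and 33.5 (-0.75 ± 0.046, adjusted p = 4.58e-09). For both atypical genes the highest treated library lay well below the lowest untreated one. E2F1 went from 245, 256 and 259 CPM to 166, 163 and 159 (-0.67 ± 0.037, adjusted p = 1.18e-09), and E2F2 from 439, 456 and 465 CPM to 344, 331 and 335 (-0.46 ± 0.037, adjusted p = 6.18e-08).

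E2F3 was the member that rose under dexamethasone, from 84.2, 82.2 and 83.0 CPM to 102, 103 and 105 (0.27 ± 0.040, adjusted p = 3.46e-05), without overlap. E2F6 fell by 0.51, E2F5 fell by 0.46 and TFDP2 fell by 0.31 on the log2 scale. E2F4 stayed just outside the threshold (-0.089 ± 0.037, adjusted p = 0.0508), and passed it without the untreated replicate 1 of this set (-0.13, 0.000984). The glucocorticoids were given at different doses and have different untreated libraries, so the responses stand side by side here and were not compared with each other.

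**Figure D3:**
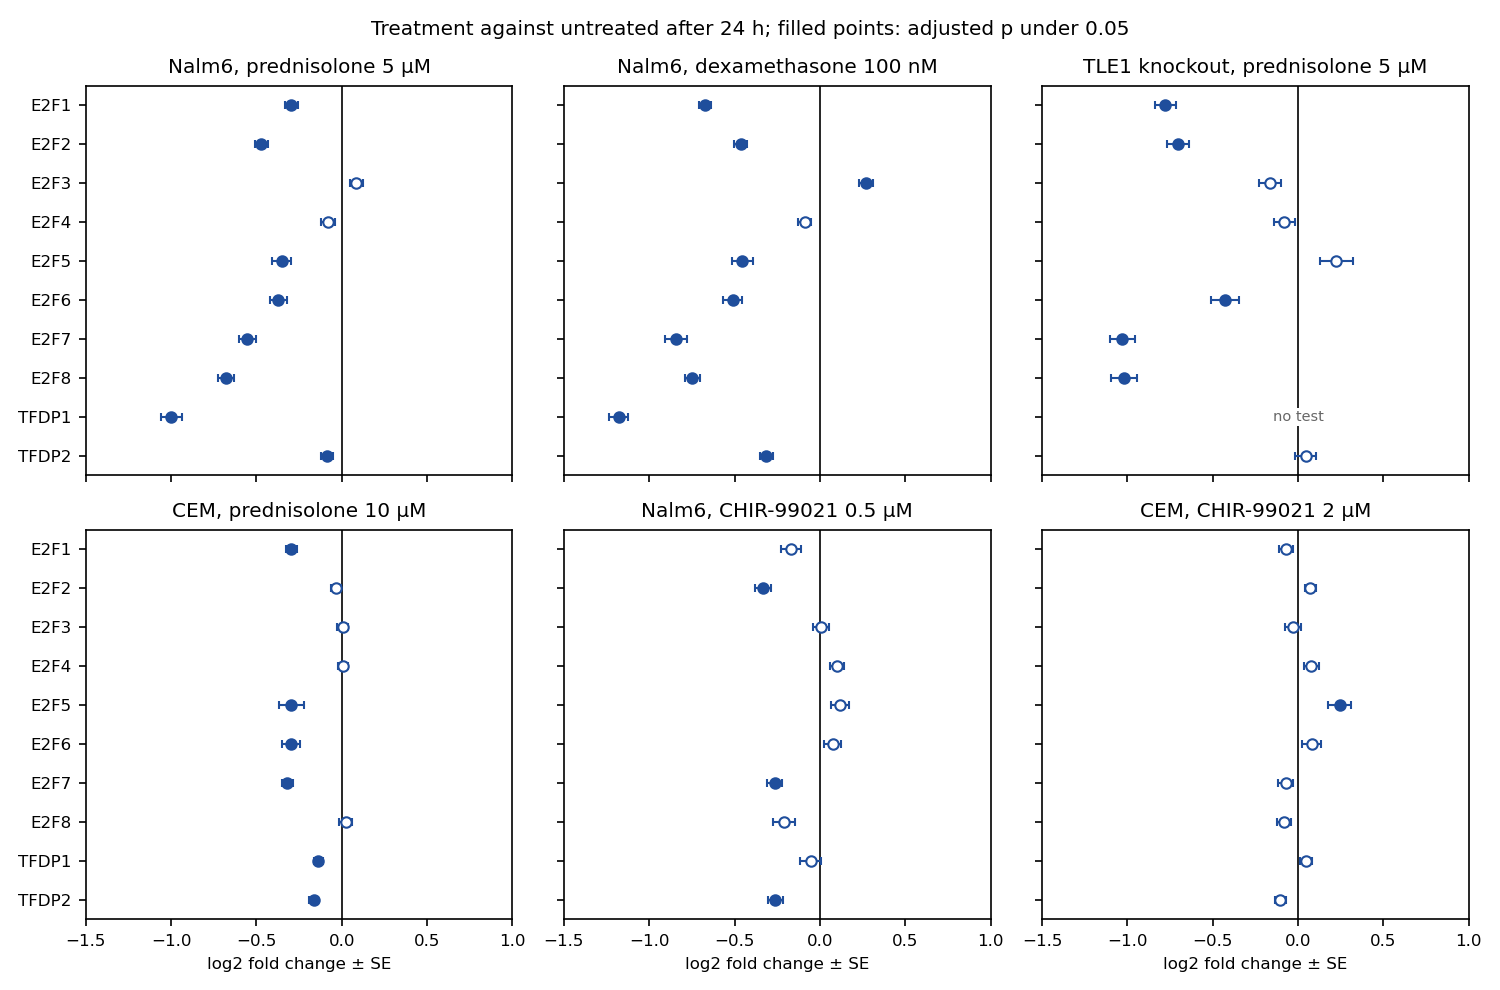
Log2 fold change of each member against untreated cells (points, bars are SE), for the 4 glucocorticoid and 2 CHIR-99021 comparisons; filled points passed an adjusted p of 0.05 and TFDP1 has no test in the knockout. In Nalm6 and the knockout E2F1, E2F2, E2F6, E2F7 and E2F8 lie left of 0 under glucocorticoid, and E2F4 lies close to 0 in all panels.

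In the TLE1 knockout prednisolone lowered 5 of the 9 tested members and raised none, where 41.7% of all genes were called (19.8% higher, 21.9% lower); the median member changed by -0.43 against -0.0032 over all genes. E2F7 went from 37.3, 38.1 and 32.8 CPM to 18.5, 18.0 and 18.0 (-1.03 ± 0.076, adjusted p = 2.92e-06). E2F8 went from 63.0, 63.6 and 55.1 CPM to 32.4, 30.3 and 29.1 (-1.02 ± 0.075, adjusted p = 2.92e-06). These atypical repressors were at about 0.490 and 0.492 of their untreated level. E2F1 went from 274, 252 and 262 CPM to 157, 162 and 154 (-0.78 ± 0.060, adjusted p = 4.04e-06), and E2F2 from 508, 491 and 447 CPM to 304, 307 and 301 (-0.70 ± 0.065, adjusted p = 1.38e-05).

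E2F6 fell by 0.43 on the log2 scale in the knockout (SE 0.083, adjusted p = 0.00191). E2F3 at 70.7, 68.0 and 67.2 CPM (-0.17 ± 0.063, adjusted p = 0.0579), E2F4 (-0.080 ± 0.062) and E2F5 at 25.3, 23.0 and 23.2 CPM (0.22 ± 0.097, adjusted p = 0.0873) did not pass. E2F3 passed without knockout untreated replicate 1 (-0.22, 0.0241) and E2F5 without knockout untreated replicate 3 (0.30, 0.0291). TFDP1 had 3 counts per library before and after treatment.

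The difference between the prednisolone responses of the knockout and of Nalm6 was tested as an interaction, in which 3.48% of all genes were called (1.1% higher, 2.38% lower). Of the 9 members 3 were called. The limit on the Nalm6 prednisolone and untreated groups holds here too. E2F1 fell further in the knockout, by an extra -0.46 ± 0.071 in log2 (adjusted p = 0.00124), and E2F7 did too (-0.46 ± 0.090, adjusted p = 0.00842). E2F5 went the other way, at 0.60 ± 0.11 (adjusted p = 0.00578), as its 3 treated libraries were lower than untreated in Nalm6 and higher than untreated in the knockout, where the response did not pass its own test. That E2F5 difference was 0.40 without strand (adjusted p = 0.0586).

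E2F8 (-0.32 ± 0.092, adjusted p = 0.0683) did not pass in this test, nor did E2F2 (-0.21 ± 0.078), E2F3, E2F4, E2F6 and TFDP2. The count rested in part on knockout untreated replicate 3, which had the lowest E2F2, E2F7 and E2F8 of its group. Without it 5 members were called, with E2F8 at -0.38 (0.00747) and E2F2 at -0.26 (0.0264). E2F1, E2F5 and E2F7 kept their calls whichever single library was left out.

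**Figure D4:**
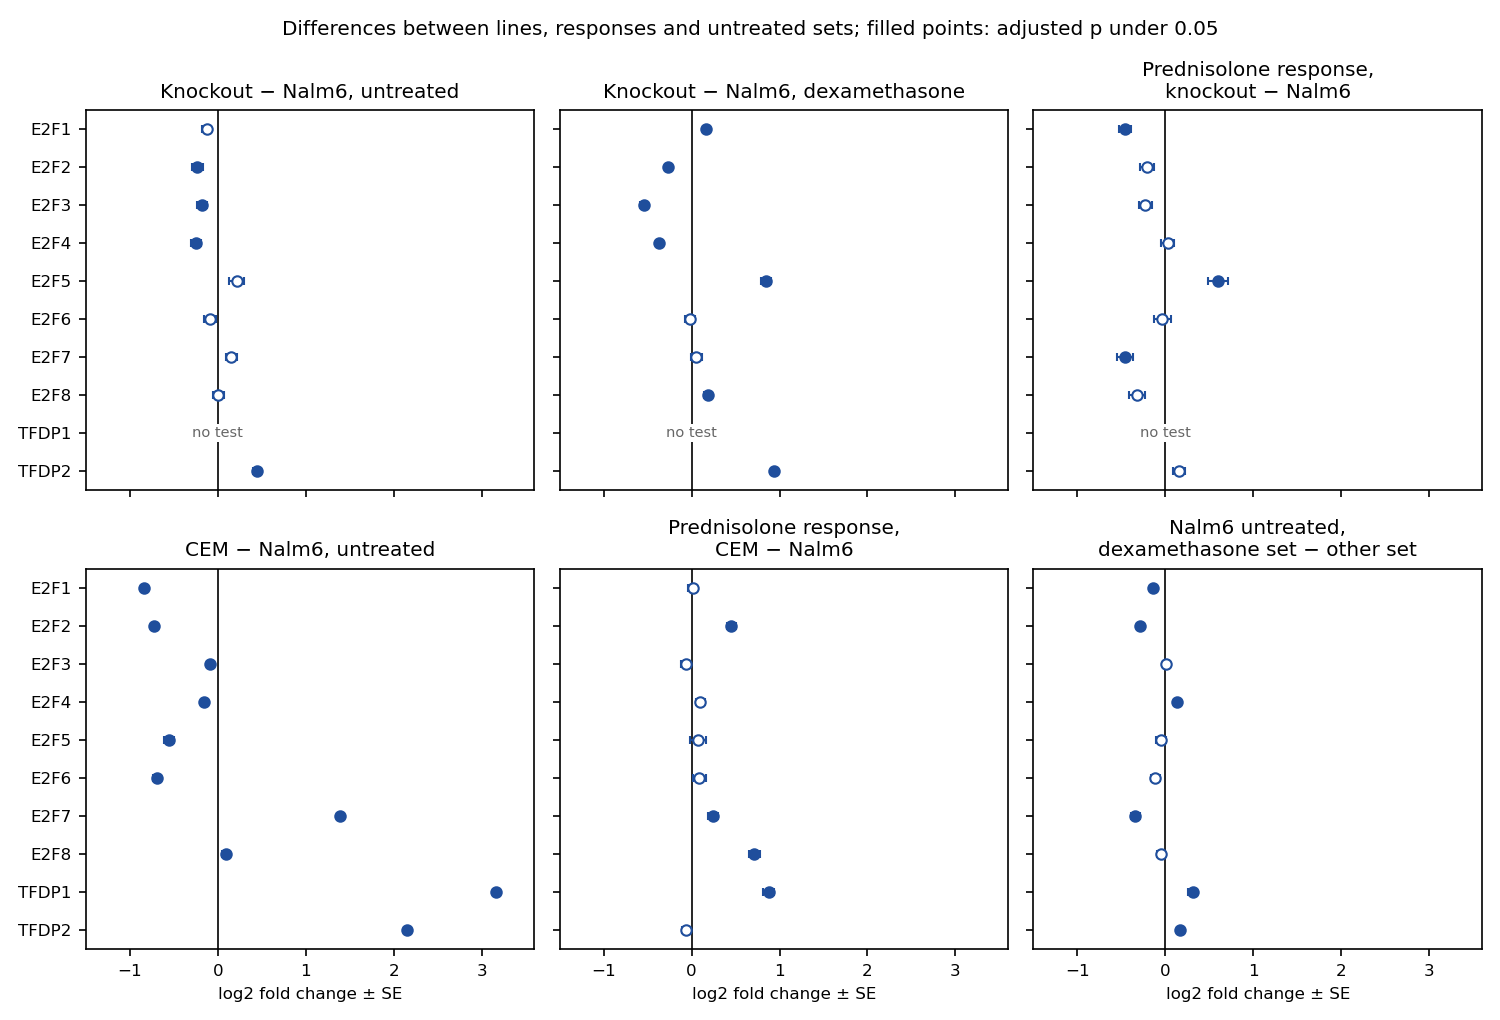
Log2 difference of each member (points, bars are SE) between lines, between prednisolone responses and between the untreated Nalm6 groups; filled points passed an adjusted p of 0.05. TFDP2 is right of 0 in both knockout panels and in untreated CEM, where TFDP1 is at 3.17.

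Untreated CEM differed from the first untreated Nalm6 group in all 10 members, 4 higher and 6 lower. Of all genes 82.8% were called (42.5% higher, 40.3% lower), so a call by itself says little here and the sizes matter. The labels do not say whether these groups were run together, so line and set cannot be told apart. TFDP1 was at 201, 199.9 and 203 CPM in CEM, 8.98-fold above Nalm6 (log2 3.17 ± 0.034, adjusted p = 2.76e-20). TFDP2 was at 703, 695 and 723 CPM, 4.44-fold above Nalm6 (2.15 ± 0.029, adjusted p = 4.09e-19). Both DP genes were therefore higher in the T-cell line than in any Nalm6 or knockout library. E2F7 was at 81.6, 85.9 and 83.3 CPM, 2.63-fold above Nalm6 (1.39 ± 0.035, adjusted p = 1.49e-15).

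The activators E2F1 and E2F2 were lower in CEM. E2F1 had 158, 153 and 161 CPM (-0.84 ± 0.032, adjusted p = 3.11e-13) and E2F2 335, 341 and 333 CPM (-0.73 ± 0.034, adjusted p = 6.18e-12). E2F6 had 21.3, 20.3 and 19.4 CPM (-0.69 ± 0.050) and E2F5 12.0, 10.8 and 11.7 CPM (-0.55 ± 0.057). Small differences were found for E2F4 (-0.15 ± 0.028), E2F3 (-0.091 ± 0.031, adjusted p = 0.0131) and E2F8 (0.088 ± 0.038, adjusted p = 0.0442). Between the untreated Nalm6 groups these genes differed by 0.13, 0.0099 and -0.049. E2F3 lost its call without CEM untreated replicate 1 (0.0679), and E2F8 without CEM untreated replicate 2 (0.203) or any Nalm6 untreated replicate 1 to 3 (0.241, 0.081 and 0.0652).

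In CEM prednisolone was given at 10 µM. Of the 10 members 6 fell and none rose, where 45.1% of all genes were called (22.3% higher, 22.8% lower), and the median member changed by -0.15 against 0.015 over all genes. E2F1 went from 158, 153 and 161 CPM to 133, 129.9 and 129.8 (-0.29 ± 0.031, adjusted p = 5.98e-07). E2F7 went from 81.6, 85.9 and 83.3 CPM to 67.9, 67.2 and 70.3 (-0.32 ± 0.033, adjusted p = 3.54e-07). In both genes the groups were apart. TFDP1 went to 189, 188 and 185 CPM (-0.14 ± 0.029, adjusted p = 0.000813) and TFDP2 to 649, 631 and 652 CPM (-0.17 ± 0.027, adjusted p = 6.08e-05), so the DP genes stayed at over 0.89 of their untreated level. E2F6 (-0.30 ± 0.053) and E2F5 (-0.30 ± 0.072) also fell, and the E2F5 call was lost without strand (-0.067, adjusted p = 0.508).

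E2F2 in CEM was at 343, 334 and 331 CPM under prednisolone and E2F8 at 63.9, 63.2 and 69.0 CPM, and neither passed (-0.032 ± 0.029 and 0.023 ± 0.039). E2F3 (0.0057) and E2F4 (0.0049) did not pass either, with signs that turn under other scalings. Tested as an interaction, 4 of 10 members differed between the CEM and Nalm6 prednisolone responses, all 4 towards a smaller fall in CEM, where 26.9% of all genes were called (14.7% higher, 12.2% lower). They were TFDP1 (0.88 ± 0.063, adjusted p = 8.28e-11), E2F8 (0.72 ± 0.064, adjusted p = 4.29e-09), E2F2 (0.45 ± 0.054, adjusted p = 5.2e-07) and E2F7 (0.25 ± 0.058, adjusted p = 0.00213). E2F1 was not among them (0.014 ± 0.051). The doses were 10 µM in CEM and 5 µM in Nalm6, so line and dose cannot be told apart. The limit on the Nalm6 prednisolone and untreated groups holds here too. Between the untreated Nalm6 groups E2F7 differed by -0.34, more in size than its 0.25 here, so this E2F7 result depends on the untreated group used. E2F2 differed there by -0.28, TFDP1 by 0.31 and E2F8 by -0.049.

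In Nalm6 CHIR-99021 at 0.5 µM lowered 3 of the 10 members and raised none, where 7.88% of all genes were called (3.16% higher, 4.72% lower). E2F2 was at 444, 462 and 463 CPM (-0.33 ± 0.049, adjusted p = 0.00302), E2F7 at 27.3, 26.5 and 28.4 CPM (-0.27 ± 0.046, adjusted p = 0.0065) and TFDP2 at 134, 132 and 146 CPM (-0.26 ± 0.044, adjusted p = 0.00574), each below all 3 untreated libraries. E2F7 lost its call without untreated replicate 2 (0.0555), and 5 members were called without CHIR-99021 replicate 3, among them E2F1 (-0.21, 0.00677) and E2F8 (-0.13, 0.0418). E2F1 with all libraries was at 236, 266 and 275 CPM (-0.17 ± 0.059, adjusted p = 0.115) and E2F8 at 57.2, 54.3 and 47.6 CPM (-0.21 ± 0.063, adjusted p = 0.0708).

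In CEM at 2 µM CHIR-99021 raised E2F5 alone of the 10 members, from 12.0, 10.8 and 11.7 CPM to 12.96, 13.5 and 13.9 (0.24 ± 0.065, adjusted p = 0.0329), where 10.8% of all genes were called (5.41% higher, 5.43% lower). This call was lost without CHIR-99021 replicate 2 (0.0975) or 3 (0.0663), without any untreated replicate 1 to 3 (0.0519, 0.120 and 0.0791), with the replicate block (0.0601) and without strand (0.330). E2F2 (0.073 ± 0.033), TFDP2 (-0.10 ± 0.032, adjusted p = 0.0604) and E2F7 (-0.072 ± 0.043), the genes that fell in Nalm6, did not pass in CEM. The doses differ between the lines, and the difference between these responses was not tested.

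The untreated Nalm6 groups also differed from each other. In the untreated group paired by title with dexamethasone, 3 members were higher and 3 lower of 10 than in the first untreated group. Of all genes 50.2% were called (25.8% higher, 24.4% lower). TFDP1 (0.31 ± 0.047), TFDP2 (0.17 ± 0.034) and E2F4 (0.13 ± 0.035) were higher, and E2F7 (-0.34 ± 0.055), E2F2 (-0.28 ± 0.041) and E2F1 (-0.14 ± 0.037) lower. E2F6 (-0.11, adjusted p = 0.0689) passed with the replicate number as a block (adjusted p = 0.0381). E2F4 did not pass without Nalm6 untreated replicate 2 of the first group (0.118, adjusted p = 0.055). For E2F2 this difference between untreated groups of 1 line was larger than the -0.23 between the untreated knockout and Nalm6, and for E2F3 (0.0099 against -0.18) and E2F4 (0.13 against -0.25) it was smaller.

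The genes around the family were followed in lists. All 27 genes of the G1/S E2F target list, which code for replication and nucleotide synthesis proteins, fell under prednisolone in Nalm6 (median -0.80), under dexamethasone in Nalm6 (-0.98) and under prednisolone in the knockout (-1.09), and 26 of 27 fell in CEM (-0.24), where the share of all genes lower was 26.1%, 30.2%, 21.9% and 22.8%. GINS2, a part of the replicative helicase, fell by 1.102 ± 0.045 with prednisolone in Nalm6, and by 1.55 ± 0.059 in the knockout. MCM4, a helicase subunit, fell by 1.07 ± 0.051 and by 1.42 ± 0.065. CDC25A, the phosphatase that activates CDK2, fell by 0.49 ± 0.033 in CEM, the most of the list there. The interaction test called all 27 less lowered in CEM than in Nalm6 (median 0.56), and called 8 of 27 further lowered in the knockout (median -0.27), TYMS by -0.87 ± 0.20.

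Those 8 calls ranged from 2 to 13 when single libraries were left out, 13 without knockout prednisolone replicate 1 and 2 without any of knockout prednisolone replicate 2, Nalm6 prednisolone replicate 1 and Nalm6 untreated replicate 1. They were 3 to 5 without any of knockout prednisolone replicate 3, knockout untreated replicates 1 and 2, Nalm6 prednisolone replicate 3 and Nalm6 untreated replicates 2 and 3. The list was chosen with earlier results of these data known, so its direction is no independent evidence. In these bulk libraries fewer cells in the phase that carries a transcript and less of it per cell cannot be told apart. Of the 10 genes of G2 and mitosis 3 fell in Nalm6 with prednisolone (median -0.050), 9 with dexamethasone (-0.27), 7 in the knockout (-0.37), and 4 fell and 1 rose in CEM (-0.074). The share of all genes lower was 26.1%, 30.2%, 21.9% and 22.8%, so the 3 of 10 with prednisolone in Nalm6 is near the background. Of these 10 genes 8 were higher and 1 lower in the untreated group of the dexamethasone set than in the first (median 0.43). Of all genes 25.8% were higher and 24.4% lower there. The prednisolone and dexamethasone counts in Nalm6 thus rest on unlike untreated groups and were not compared. AURKB, the kinase of the chromosomal passenger complex, fell in each, by 0.49, 0.64, 0.72 and 0.14. Whether the share of cycling cells has a part in the members' falls was not tested.

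**Figure D5:**
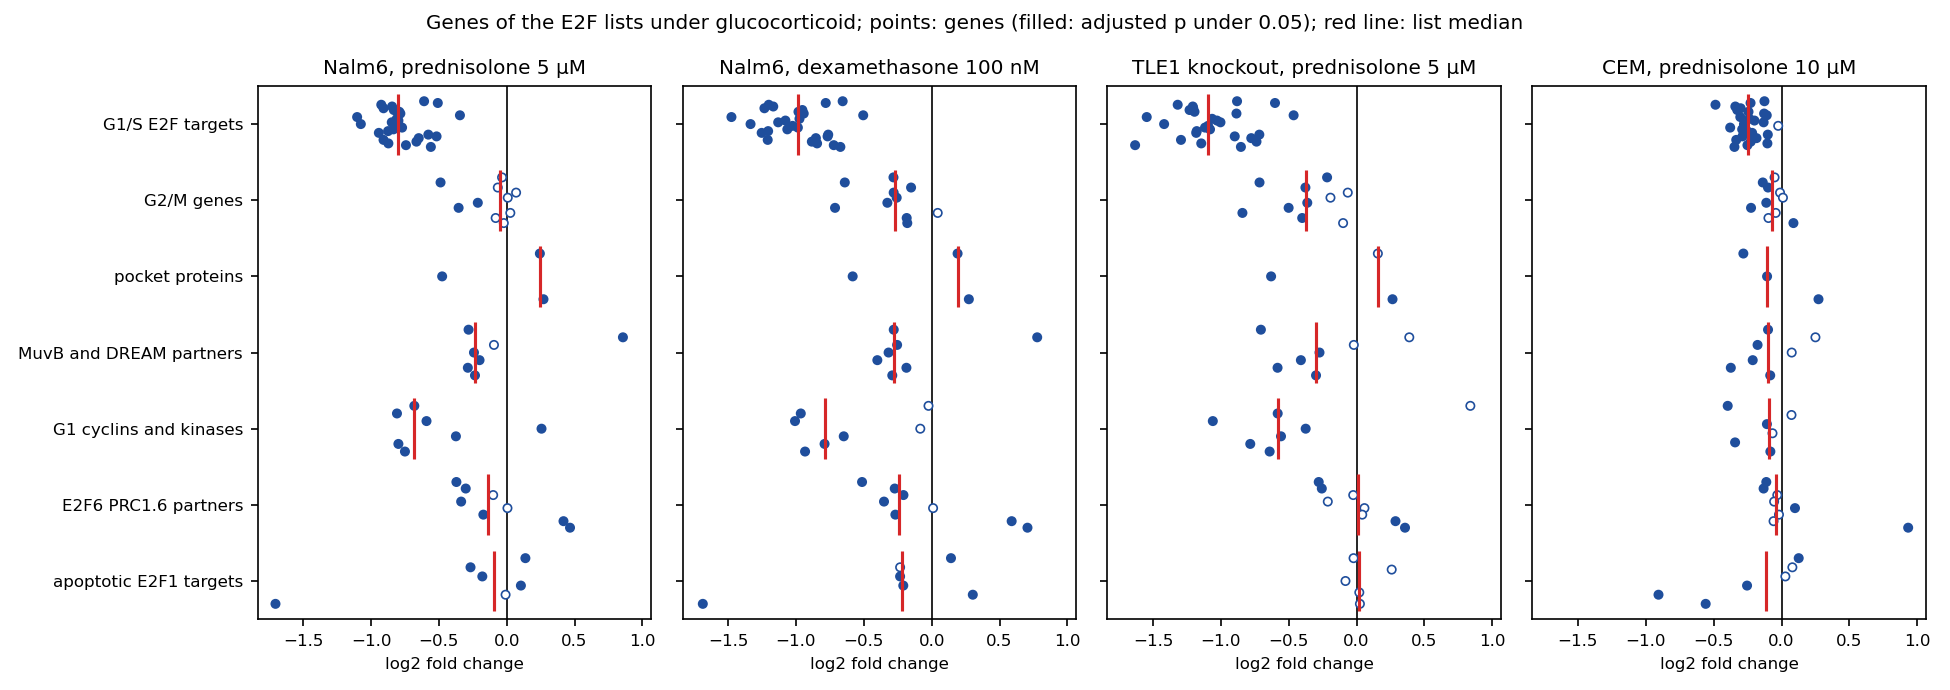
Log2 fold changes of the genes in 7 lists under glucocorticoid in Nalm6, the knockout and CEM; each point is a gene, filled where the adjusted p was under 0.05, and red lines are list medians. G1/S target points all lie left of 0 in the Nalm6 and knockout panels, with medians of -0.80, -0.98 and -1.09, and closer to 0 in CEM, at -0.24.

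Pocket proteins, which bind E2F1 to E2F5, went in unlike directions. With prednisolone in Nalm6 RB1 rose by 0.24 ± 0.037 and RBL2 (p130) by 0.27 ± 0.034, and RBL1 (p107) fell by 0.48 ± 0.038. With dexamethasone the same genes changed by 0.19, 0.27 and -0.58. In the knockout RBL2 (0.26) and RBL1 (-0.63) changed alike and RB1 did not pass (0.16). In CEM RB1 fell by 0.28 ± 0.029 while RBL2 rose by 0.27, and the RB1 response differed between the lines by -0.51 ± 0.050. RBL1 was also lower in the untreated knockout (-0.51 ± 0.052, adjusted p = 0.000123) than in Nalm6.

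Of the cyclins and kinases that release E2F, 7 of 8 were measured well enough in Nalm6 (6 in CEM). There 6 fell and 1 rose with prednisolone, with CCND3 at -0.81 ± 0.042, CDK4 at -0.80 ± 0.041 and CDK6 at -0.75 ± 0.048; 5 fell with dexamethasone, 6 fell in the knockout and 4 in CEM. The share of all genes lower was 26.1%, 30.2%, 21.9% and 22.8% in these comparisons. CCND2, a D-type cyclin gene, was low in both untreated lines, at 0.329 ± 0.125 CPM in the knockout and 3.80 ± 0.278 in Nalm6 (SD, n = 3), a log2 difference of -3.47 ± 0.20. The MuvB complex represses cell cycle genes together with E2F4 and p130. The list of 7 MuvB and DREAM partners also holds MYBL2 and FOXM1, which are not part of that repressor. Of the 7 genes 5 fell and LIN37 rose (0.86 ± 0.11) with prednisolone in Nalm6, where 28.7% of all genes were higher and 26.1% lower. MYBL2, the B-MYB factor that replaces E2F4 on MuvB, fell in Nalm6 (-0.29), the knockout (-0.58) and CEM (-0.37).

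Of the 8 Polycomb partners of E2F6, 2 rose and 4 fell with prednisolone in Nalm6, 2 and 2 in the knockout and 2 and 2 in CEM. Of all genes 28.7% were higher and 26.1% lower in the first, 19.8% and 21.9% in the second and 22.3% and 22.8% in CEM, so 2 of 8 is near the background in each. YAF2, a RING1-binding subunit, rose in Nalm6, the knockout and CEM, by 0.47, 0.36 and 0.93. Of the 6 apoptotic genes that E2F1 is known to induce, 2 rose and 3 fell with prednisolone in Nalm6, against the same 28.7% and 26.1% of all genes. PMAIP1, a BH3-only gene, fell by 0.91 ± 0.044 in CEM with prednisolone and was raised by CHIR-99021 there (0.42 ± 0.052). With CHIR-99021 5 of the 27 G1/S targets fell in Nalm6, where 4.72% of all genes were lower. That count was 3 without CHIR-99021 replicate 1, 9 without its replicate 3, 2 without untreated replicate 1 and 1 without untreated replicate 2 or 3. In CEM 5 targets fell, where 5.43% of all genes were lower. The count there was 3 without CHIR-99021 replicate 1 or untreated replicate 2, 2 without untreated replicate 1 or 3 and 0 without CHIR-99021 replicate 2.

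Across the 33 libraries, after the mean of each line was taken from log2(CPM + 1), E2F2 and E2F7 followed each other most closely within the family (Pearson r = 0.96), then E2F1 and E2F7 (0.91) and E2F1 and E2F2 (0.89). E2F3 ran against E2F5 (-0.69) and TFDP1 (-0.70). These points share libraries, depth and untreated groups, and most of the spread is between treatments, so the values are a description. Among 10762 genes, those most like E2F1 included KNTC1 (0.93) and FANCI (0.93). For E2F2 the 3 most like were E2F7, CENPO (0.95) and FANCA (0.95), for E2F7 FANCA (0.97), SLC20A1 (0.97) and RRM2 (0.96), and for E2F8 DNMT1 (0.97), NCAPH (0.96) and TK1 (0.96).

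The other members sat in different company. The genes most like E2F6 were GEMIN5 (0.98), PUS7 (0.97) and ISOC1 (0.97), and those most like E2F5 were ATAD1 (0.92), MRPS30 (0.89) and TGDS (0.89). For E2F4 they were SSR4 (0.82), EDF1 (0.80) and TRAPPC2L (0.78), and for E2F3 DLG5 (0.82), MED29 (0.80) and UCK1 (0.77). TFDP1, which hardly varies in the knockout, was most like FBXO21 (0.95), ZNF320 (0.92) and PMP22 (0.91), and TFDP2 most like PELI2 (0.92), QSOX2 (0.81) and CPT1A (0.80).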

How the data were processed

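RNA was sequenced from 33 libraries of Nalm6, TLE1 knockout and CEM cells. The deposited files hold raw counts of reads per gene for 62446 genes, unstranded and for each strand, in the layout that STAR writes; the submitters' processing notes name the build hg19 and the tools Bowtie2 and DESeq2, and versions and annotation are not given in the sources used here. Column 4 (one strand) was used, since it held 12.3 to 15.3 times the counts of the other strand; rows for unassigned reads (unmapped 2.84% to 11.2%, multiply mapped 4.83% to 7.55%, outside genes 18.4% to 32.7%, ambiguous 4.70% to 7.45%) were left out. Replicates differed by more than sampling noise (chi-square per degree of freedom 1.77 to 39.0), and none were merged.

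Each of 12 comparisons was fitted to its own groups with edgeR 4.0.16 (R 4.3.3; filterByExpr, TMM factors, glmQLFit and glmQLFTest); p-values were adjusted by Benjamini-Hochberg over all genes tested and called under 0.05; the fit was tested on simulated data. Standard errors come from the F statistic. CPM are counts per 1000000 column 4 counts. Lengths are exon unions or longest transcripts of GENCODE v29, used for lengths only. Members, lists and tests were chosen with earlier results of these data known. All 10 members are named; from a list, at most 4 called genes of largest change per comparison, plus RB1, RBL1, RBL2, MYBL2 and CCNE2; and the 3 genes most like each member among those with a mean of at least 5 CPM. A result that the rule would name is not reported here. The lists are 3 pocket proteins, 7 MuvB and DREAM partners, 8 G1 cyclins and kinases, 8 Polycomb partners of E2F6, 27 G1/S targets, 10 G2/M genes, 6 apoptotic targets, and 8 markers each of B and T lineage. Alternatives were DESeq2 1.42.0, a replicate block, unstranded counts (column 2), no filter or a minimum of 10 counts in every library, RLE factors, 1 fit over all 11 groups, and leaving out each library; those for the G1/S counts were added after seeing the data. Same-numbered libraries of the untreated Nalm6 groups deviated together (r 0.119 to 0.389 over genes), which makes their numbers a pairing taken from the data.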

Additional observations from a re-analysis of the deposited data

Results flagged for a closer look

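The interaction tests singled out 7 member results as differing between lines under prednisolone, 3 at the same dose (knockout and Nalm6) and 4 at different doses (10 µM in CEM and 5 µM in Nalm6), where line and dose cannot be told apart. For all 7 the labels do not say with which untreated group the Nalm6 prednisolone libraries were run. In the prednisolone response of the TLE1 knockout minus that of Nalm6, E2F1 had a log2 difference of -0.46 and E2F7 of -0.46, both further lowered in the knockout (-0.78 against -0.30 and -1.03 against -0.55). E2F5 had a difference of 0.60, with 0.22 in the knockout and -0.35 in Nalm6, and this value rests on counting by strand.

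In the prednisolone response of CEM minus that of Nalm6, TFDP1 differed by 0.88, E2F8 by 0.72, E2F2 by 0.45 and E2F7 by 0.25. The E2F7 value is smaller in size than its -0.34 between the untreated Nalm6 groups, so it depends on the untreated group used. TFDP1 fell by 0.998 in Nalm6 and by 0.14 in CEM, where its level was 8.98-fold higher before treatment. E2F8 changed by -0.68 in Nalm6 and by 0.023 in CEM, the latter not past the test.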

How the results depend on the processing

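Of 66 member results past the test, leaving out single libraries gave 438 values, of which 416 stayed past it and 22 did not, and the other alternatives gave 462, of which 443 stayed and 19 did not. None of these reversed. Among 50 member results not past the test, 16 and 21 values passed, and 25 and 12 changed sign. The cause was not tested.

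The number of members called moved as follows. For CHIR-99021 in Nalm6 it was 5 with no filter or with all 11 groups in 1 fit, and 2 to 5 without single libraries. For the untreated knockout against Nalm6 it was 7 with all groups in 1 fit and 2 to 7 without single libraries. For the prednisolone response of the knockout minus Nalm6 it was 5 with all groups in 1 fit and 3 to 5 without single libraries. For CHIR-99021 in CEM it was 0 with unstranded counts by edgeR, and 0 to 1 without single libraries.

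Blocking on the replicate number gave 2 members for the untreated knockout against Nalm6 and 0 for CHIR-99021 in CEM, and it brought E2F4 under prednisolone in Nalm6 past the test (-0.082, adjusted p = 0.0485). Same-numbered libraries did not consistently deviate together in most comparisons, and for prednisolone in the knockout they deviated in opposite directions (r -0.42 to -0.30). Only the untreated Nalm6 groups had every r over 0.1. Under prednisolone in Nalm6, where r was 0.091 to 0.19, 3 of 3 pairs correlated best with their own number.

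Small values changed sign. E2F3 under prednisolone in CEM was -0.00060 with RLE factors, -0.00053 with DESeq2 and -0.015 with all groups, and -0.014 to 0.018 without single libraries. E2F4 there was -0.0015, -0.0014 and -0.016, and -0.0060 to 0.0094. E2F8 there was -0.010 to 0.055 without single libraries. E2F3 under CHIR-99021 in Nalm6 was -0.0018 with no filter and -0.031 to 0.054 without single libraries, and TFDP1 -0.092 to 0.0084. In the untreated knockout E2F8 was -0.0041 with at least 10 counts in every library and -0.032 to 0.063 without single libraries. E2F6 in the knockout under dexamethasone was 0.0059 with all groups and -0.054 to 0.022 without single libraries. Without single libraries the knockout-minus-Nalm6 responses of E2F4 and E2F6 were -0.0097 to 0.073 and -0.082 to 0.028, and the CEM-minus-Nalm6 response of E2F1 was -0.0095 to 0.038. Between the untreated Nalm6 groups E2F3 was -0.012 with at least 10 counts and -0.0036 to 0.026 without single libraries, and E2F5 was 0.068 and E2F8 0.0059 with unstranded counts.

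Over all genes, CHIR-99021 in Nalm6 called 1425 genes, 2320 with no filter, 925 with the replicate block, 820 and 2708 without CHIR-99021 replicates 1 and 3, and 779, 428 and 409 without untreated replicates 1 to 3. The share of its calls that were higher was 40.1%, 50.1% without CHIR-99021 replicate 3, and 25.2% and 26.9% without untreated replicates 2 and 3. The untreated knockout comparison called 4655 genes, and 2804, 2847 and 2939 without Nalm6 untreated replicates 1 to 3. The knockout-minus-Nalm6 response called 624, of which 31.6% were higher, 981 with no filter, 1277 with all groups (42.6% higher), 1852 without knockout untreated replicate 3, and 361, 369 and 375 without Nalm6 untreated replicates 1 to 3. CHIR-99021 in CEM called 1865, 1001 without CHIR-99021 replicate 2, and 1136, 1104 and 1064 without untreated replicates 1 to 3. Depth limits E2F5 and E2F7 most, whose lowest libraries held 314 and 342 counts, leaving aside TFDP1 in the knockout.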
